A study of Mus musculus with 6 samples.

Results

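The genes described are those that encode the subunits of the proteasome, taken as every gene of the deposited table whose symbol is Psm, a letter from a to e and a number. Psmb8 and Psmb9 were left out of the set by the same rule and are given only as partners of other subunits. The rule found 41 genes among the 55291 of the table, and 40 of them passed the filter on low counts, as did 15478 genes in all. RNA was sequenced from marrow flushed out of the femurs of 3 P2rx7 knockout mice (libraries A, B and C) and 3 WT mice (libraries 1, 2 and 3), each aged 6 to 8 weeks, with 1 library per mouse. P2rx7 codes for a membrane channel that opens on extracellular ATP, and the series is about its place in the ageing of bone. The sources used here do not say which strain the mice were, how the allele was made, which exons it lacks or whether the WT mice were littermates.

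The proteasome degrades proteins that carry ubiquitin chains. Its core particle is a barrel of stacked rings: the outer alpha rings gate the entry of substrates, and the inner beta rings hold the cutting sites. A regulatory particle, made of a base with a ring of ATPases and a lid, binds the ubiquitin chain, removes it and threads the unfolded protein into the core. In immune cells and under interferon-gamma, inducible beta subunits replace the constitutive catalytic ones and the activator formed by Psme1 and Psme2 caps the core, which changes the peptides offered for antigen presentation.

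Total counts were 22382281, 18716704 and 19663655 for knockouts A, B and C, against 20037343, 23575652 and 23311296 for WT 1, 2 and 3. P2rx7 itself was counted 876, 722 and 748 times in knockouts A, B and C, against 1207, 1410 and 1453 times in WT 1, 2 and 3. Its log2 fold change of knockout over WT was -0.67 ± 0.049 (SE; adjusted p = 0.0109, edgeR's quasi-likelihood test with Benjamini-Hochberg adjustment), so knockouts kept 62.8% of the WT level, and a two-sided exact permutation gave p = 0.1, which is the lowest value 3 libraries against 3 allow. The edgeR adjusted p of P2rx7 missed the threshold without knockout B (0.0763), without knockout C (0.0973), in the 4 libraries with Gh counts (0.516) and with that set as a covariate (0.112), while its log2 fold change stayed between -0.69 and -0.60 over the 16 alternatives. Knockouts B and C differed from the other 4 libraries in that they held no count of Gh, the growth hormone gene, which had 23 counts in knockout A and 54 to 82 in the WT libraries; knockouts B and C held 46 and 36 counts of Alb, the albumin gene, which had 0 in the rest. The marker genes did not match whole marrow. Of 10 erythroid markers 9 stayed under 1 CPM (a library's counts scaled to a common total, with TMM factors) in every library, with globin genes at 0 to 5 counts, as did 9 of 10 B-lineage markers, and Cd3e of T cells had no count. Macrophage and stromal transcripts such as Lyz2, C1qb and Col1a1 led instead. The 10 monocyte and macrophage markers summed to 14372 to 15376 CPM in knockouts and 13979 to 15344 CPM in WT. Of these, 6 had fold changes above 0 and 4 below, with a median of 0.11 on the log2 scale. At an unadjusted edgeR p under 0.05, 2 had the higher mean in knockouts and 1 the lower, beside 8.35% and 8.22% of all genes. The lower 1, Cd163, a macrophage scavenger receptor, alone passed the adjusted test, at a log2 fold change of -0.74 ± 0.090 (SE; edgeR adjusted p = 0.0486). Another 10 stromal and osteoblast markers summed to 19999.9 to 21280 CPM in knockouts and 18342 to 22107 CPM in WT. Col1a1 and Col1a2 held most of this sum, with log2 fold changes of -0.26 and -0.09. Cxcl12, Lepr, Kitl, Sp7 and Alpl had all knockout values above all WT values, at 0.55 to 1.49 on the log2 scale. Of the 9 tested, 5 had an unadjusted edgeR p under 0.05 with the higher mean in knockouts and 1 with the lower. Over all genes these shares were 8.35% and 8.22%, and none of the 9 passed the adjusted test. In such bulk RNA, fewer cells of a type and less RNA per cell cannot be told apart.

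No proteasome subunit gene passed the test between knockout and WT marrow. At an adjusted p under 0.05 the edgeR test called 0 of the 40 subunits, beside 0.103% of all 15478 genes tested. At an unadjusted p under 0.05, 3 subunits had the higher mean in knockouts, which is 7.5% of them beside 8.35% of all genes, and 1 had the lower mean, which is 2.5% beside 8.22%. DESeq2 and every other alternative test also called 0 subunits. The 3 knockout CPM values lay above all WT values for 5 subunits (12.5%, beside 11.5% of all genes) and below all WT values for 3 (7.5%, beside 10.4%). These shares lie near those of all genes or below them.

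Subunit levels in the genotypes lay close together. The 40 log2 fold changes of knockout over WT had a median of 0.0030, with 21 above 0 and 19 below, against a median of 0.0042 over all tested genes; scaling by DESeq2's size factors put 19 above 0 and upper-quartile scaling 25. In size, 35 of the 40 were under 0.1 on the log2 scale. Their median size was 0.0477, against 0.0740 over the 8223 tested genes at or above the lowest subunit CPM with Psma8 set aside. The set summed to 3370 ± 46.0 CPM in knockouts and 3397 ± 128 CPM in WT (SD, n = 3 each), which is 0.338 ± 0.00741% of knockout counts and 0.337 ± 0.0119% of WT counts.

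With Psma8 set aside, the standard errors of the 39 other tested subunits ran from 0.041 to 0.108 on the log2 scale. Every one of their 95% intervals lay between -0.37 and 0.33, so differences outside the range of 22.5% lower to 25.6% higher in knockouts fell outside all of them. The interval lay within 0.25 of 0 for 34 of the 39 and excluded 0 for 4, which were Psmb10, Psme1, Psme2 and Psmd8.

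**Figure D1:**
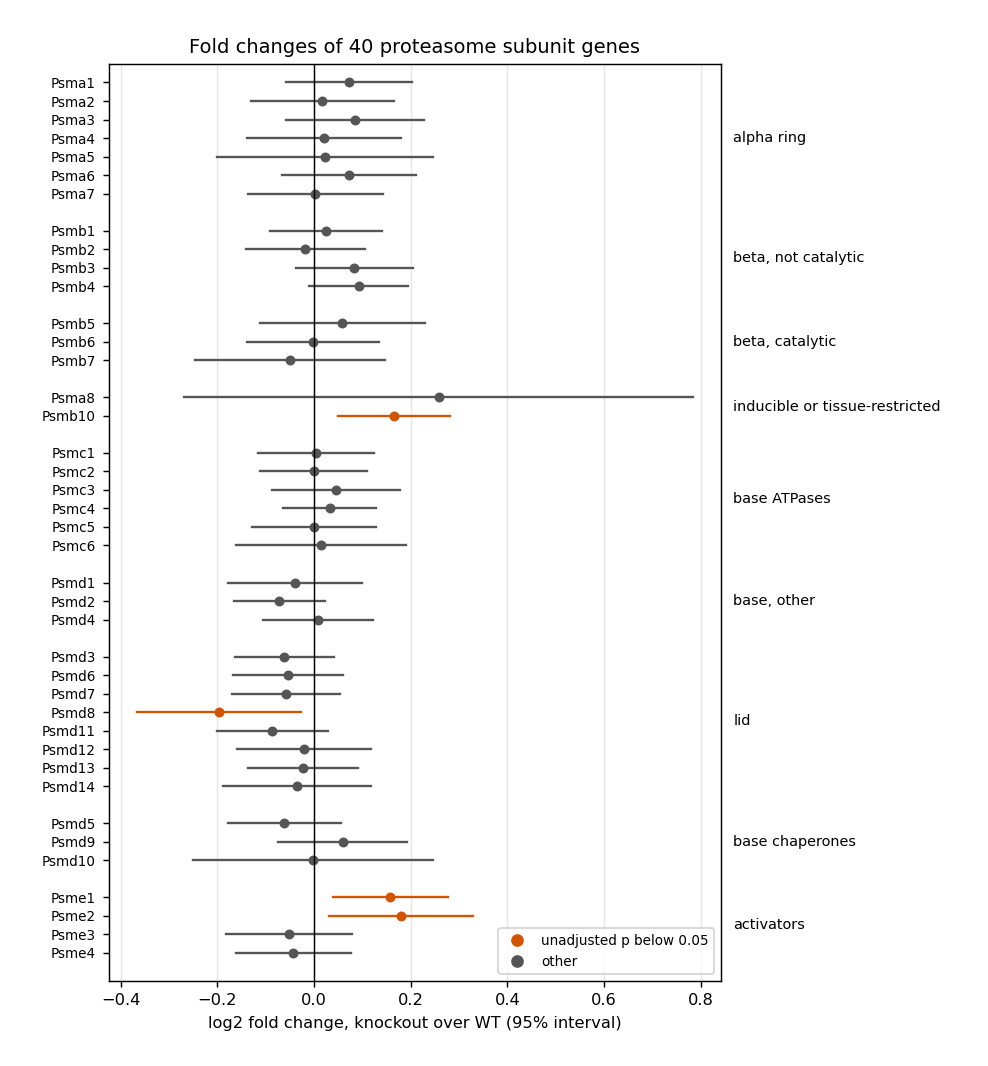
Log2 fold change of knockout over WT for the 40 tested subunit genes, grouped by their place in the complex; points are edgeR estimates, bars are 95% intervals and orange marks an unadjusted p under 0.05. Psmb10, Psme1 and Psme2 lie right of 0 and Psmd8 left of 0, and Psma8 has the widest interval, from -0.27 to 0.79.

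The alpha ring genes, Psma1 to Psma7, encode the gate of the core particle. Per exon length (as FPKM, counts scaled by library size and exon length, averaged over 6 libraries), they ran from Psma3 at 13.1 to Psma6 at 68.3. Psma6 had 85.7, 88.8 and 85.1 CPM in knockouts A, B and C, against 87.8, 83.2 and 75.9 CPM in WT 1, 2 and 3, so the groups overlapped and WT 3 was the lowest library. Psma3 had 49.4, 55.7 and 52.9 CPM in knockouts, against 50.7, 51.0 and 47.3 CPM in WT, again with WT 3 lowest. All 7 alpha genes had fold changes above 0 with TMM and with upper-quartile scaling and 6 of 7 with DESeq2's size factors, but their median was only 0.023 on the log2 scale. Without WT 3, 3 of the 7 lay above 0 and the median was -0.022. Psma5 varied most within a genotype, with 24.1, 31.1 and 28.8 CPM in knockouts A, B and C and 28.8, 27.99 and 25.8 CPM in WT 1, 2 and 3.

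Psma8, the alpha subunit of the germ-cell proteasome, was the lowest tested member. It was counted 93, 64 and 69 times in knockouts A, B and C, against 81, 71 and 51 times in WT 1, 2 and 3, which is 1.47 ± 0.185 FPKM for knockouts and 1.24 ± 0.367 FPKM for WT (SD, n = 3 each). Its somatic counterpart Psma7 reached 26.2 ± 1.20 FPKM in knockouts and 26.3 ± 1.63 FPKM in WT. The log2 fold change of Psma8 was 0.26 ± 0.23 (SE), with a 95% interval from -0.27 to 0.79, so a difference of that size was not detectable in these libraries. Psmb11, the thymus-specific catalytic subunit, had 1 count in each knockout library and 0, 1 and 0 counts in WT 1, 2 and 3. Every library was at or under the 3 counts that a count of 0 allows, and Psmb11 alone of the 41 failed the filter.

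The beta ring genes without a cutting site, Psmb1 to Psmb4, ran from Psmb3 at 18.1 FPKM to Psmb2 at 85.8 FPKM, the highest of all 41 genes. Over the 14 constitutive core genes the ratio of highest to lowest mean was 6.54, with a median of 25.4 FPKM. Psmb4 had 100.3, 100.4 and 102 CPM in knockouts A, B and C, against 91.9, 98.4 and 93.2 CPM in WT 1, 2 and 3. The 3 knockout values lay above all WT values and close to each other. Its log2 fold change was 0.09 ± 0.045 (SE; edgeR adjusted p = 0.341). Psmb3 had 42.0, 44.6 and 42.4 CPM in knockouts, against 40.7, 41.4 and 39.6 CPM in WT, also without overlap, with a log2 fold change of 0.08 ± 0.052 (SE; edgeR adjusted p = 0.463). Psmb1 and Psmb2 overlapped between genotypes, at 0.02 and -0.02 on the log2 scale.

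Psmb5, Psmb6 and Psmb7 carry the constitutive cutting sites, with chymotrypsin-like, caspase-like and trypsin-like activity in that order. Psmb5 had 21.1, 21.5 and 19.8 CPM in knockouts A, B and C, against 21.1, 20.4 and 18.5 CPM in WT 1, 2 and 3. Psmb6 had 79.6, 71.4 and 80.5 CPM in knockouts, against 75.4, 80.6 and 75.9 CPM in WT. Psmb7 had 46.2, 48.5 and 53.9 CPM in knockouts, against 56.3, 51.1 and 46.5 CPM in WT. The genotypes overlapped for all 3 genes. Their log2 fold changes were 0.06 ± 0.074, -0.0020 ± 0.059 and -0.05 ± 0.085 (SE), and the 95% intervals ran from -0.11 to 0.23 for Psmb5, from -0.14 to 0.14 for Psmb6 and from -0.25 to 0.15 for Psmb7. Per exon length, Psmb6 stood highest with 41.1 ± 2.83 FPKM in knockouts and 41.4 ± 1.79 FPKM in WT, and Psmb7 lowest with 14.4 ± 1.10 FPKM in knockouts and 15.01 ± 1.36 FPKM in WT (SD, n = 3 each).

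Limits of the counting touch these catalytic genes. A processed pseudogene, Gm3375, is 98.87% identical to the longest reading frame of Psmb5 and held 90 to 135 counts a library, up to 34.3% of the lowest Psmb5 count of 394. With its counts added, the log2 fold change of Psmb5 was 0.02. Psmb6 also has a pseudogene copy, Psmb6-ps2, which is 92.06% identical and held 112 to 167 counts a library, up to 12.4% of the lowest Psmb6 count of 1344. With that copy added the log2 fold change of Psmb6 was 0.0038. Psmb7 shares exon positions with Nek6 on the opposite strand, which had up to 2490 counts against at least 912 for Psmb7, and whether counting used strand is not given in the sources used here.

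**Figure D2:**
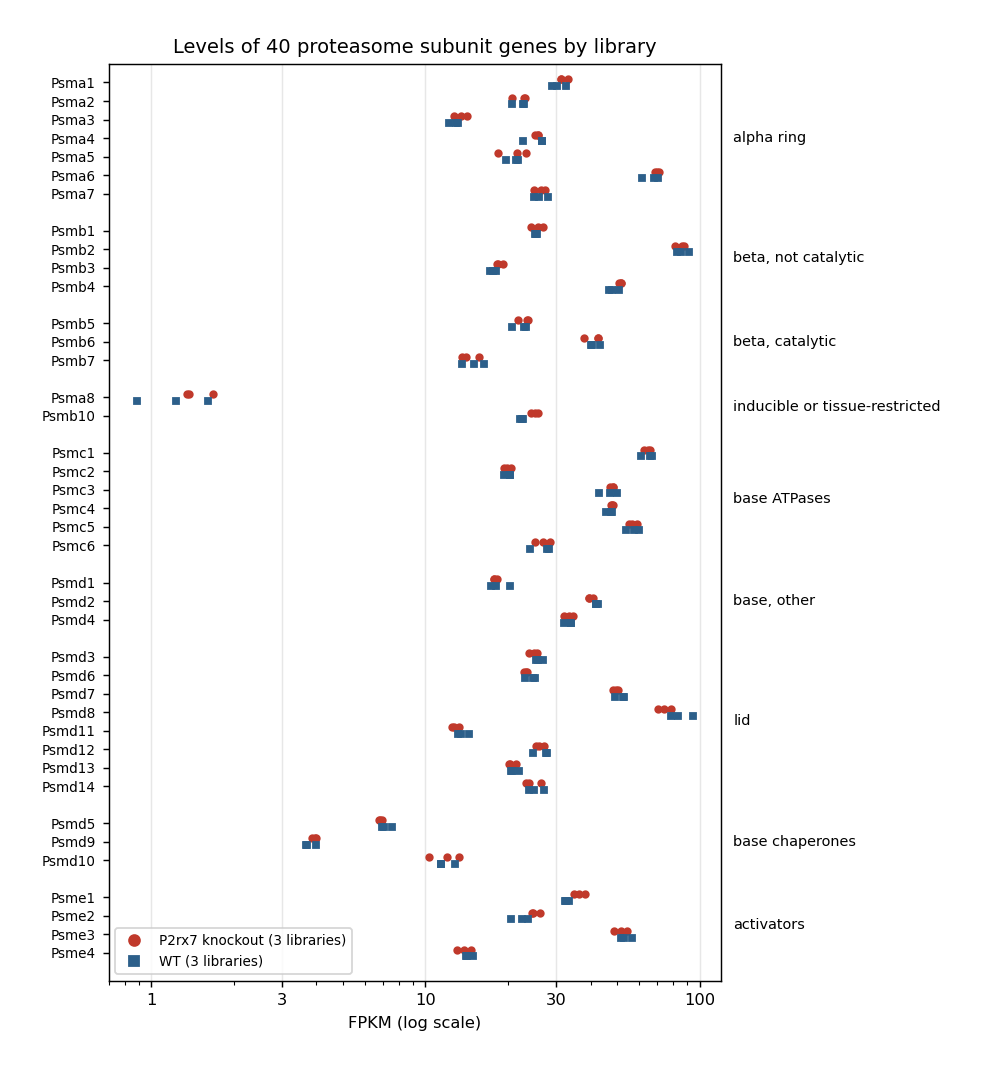
FPKM of 40 subunit genes in each library on a log axis, grouped by place in the complex; red circles are the 3 P2rx7 knockout libraries and blue squares the 3 WT libraries. Between genes the mean ran from 1.36 FPKM (Psma8) to 85.8 FPKM (Psmb2), while within a gene the libraries of both genotypes lay close together.

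The promoters of Psmb5 and Psmb6 are shown because both held the antioxidant response element TGACNNNGC, the kind of site through which Nfe2l1 and Nfe2l2 act on proteasome genes. The windows run from 250 bases before to 50 after the RefSeq start on GRCm38.p6, 5′ to 3′ on the gene's strand, and capitals mark the match. The Psmb5 window is chr14:54617946-54618245 on the minus strand, with the match 47 bases before the start, and the Psmb6 window is chr11:70525107-70525406 on the plus strand, with the match 9 bases before it.
Psmb5: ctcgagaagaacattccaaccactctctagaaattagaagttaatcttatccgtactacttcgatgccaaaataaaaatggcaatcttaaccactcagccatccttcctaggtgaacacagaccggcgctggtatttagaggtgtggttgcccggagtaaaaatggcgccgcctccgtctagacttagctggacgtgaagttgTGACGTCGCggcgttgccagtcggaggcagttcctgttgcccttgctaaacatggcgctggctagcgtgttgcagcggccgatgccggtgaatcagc
Psmb6: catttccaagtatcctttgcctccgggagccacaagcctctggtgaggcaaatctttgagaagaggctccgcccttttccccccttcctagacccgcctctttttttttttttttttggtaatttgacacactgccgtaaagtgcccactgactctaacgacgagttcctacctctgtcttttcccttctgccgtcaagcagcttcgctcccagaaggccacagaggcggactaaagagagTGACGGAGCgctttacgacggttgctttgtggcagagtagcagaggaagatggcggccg
Searched on both strands in the 34 subunit genes with a RefSeq window, the element was found in 6, which also included Psmc6, Psmd12, Psmd9 and Psme4. That is 17.6% of the subunit genes, beside 14% of all 27025 genes with a window. The CCAAT box was found in 13 of the 34 (38.2%), beside 41.1% of all genes. A match describes letters in the window and is not evidence of binding.

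Psmb10, the interferon-inducible subunit that takes the place of Psmb7, had the lowest p of the set in the edgeR test. It had 43.7, 43.3 and 41.6 CPM in knockouts A, B and C, against 38.5, 38.5 and 37.5 CPM in WT 1, 2 and 3. All 3 knockout libraries lay above all 3 WT libraries. The log2 fold change was 0.17 ± 0.050 (SE; unadjusted p = 0.0106, edgeR adjusted p = 0.195), with a 95% interval from 0.05 to 0.28. It did not pass the test. Over the 16 alternatives the fold change ran from 0.15 to 0.19, but its p was not the lowest in all of them. DESeq2 gave an unadjusted p of 0.0538 for Psmb10, against 0.0133 for Psmd8 and 0.0395 for Psme1. An edgeR fit of all genes with a count gave 0.0340 for Psmb10 and 0.0075 for Psmd8 (unadjusted).

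The partners of Psmb10 in the inducible core are Psmb8, which replaces Psmb5, and Psmb9, which replaces Psmb6. Psmb8 had 54.5 ± 2.23 CPM in knockouts and 44.5 ± 1.41 CPM in WT (SD, n = 3 each), a log2 fold change of 0.29 ± 0.054 (SE; edgeR adjusted p = 0.112). Psmb9 had 29.2 ± 1.52 CPM in knockouts and 23.4 ± 1.38 CPM in WT (SD, n = 3 each), a log2 fold change of 0.32 ± 0.070 (SE; edgeR adjusted p = 0.146). Neither passed edgeR's test, while DESeq2 gave an adjusted p of 0.0202 for Psmb8 and 0.0705 for Psmb9, and an edgeR fit of all genes with a count gave 0.0188 and 0.0321.

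Set against its constitutive counterpart, each inducible subunit gave a ratio of FPKM values. Psmb10 to Psmb7 was 1.90, 1.79 and 1.55 in knockouts A, B and C, against 1.37, 1.51 and 1.62 in WT 1, 2 and 3, and knockout C fell inside the WT range. Psmb8 to Psmb5 was 0.697 ± 0.00229 in knockouts and 0.595 ± 0.0568 in WT (SD, n = 3 each), without overlap. Psmb9 to Psmb6 was 0.194 ± 0.0234 in knockouts and 0.155 ± 0.0105 in WT (SD, n = 3 each), also without overlap. Psmb8 and Psmb9 alone did not overlap between genotypes either, and no share of such ratios over all genes was computed. In both genotypes Psmb10 was thus the inducible subunit that stood above its counterpart per exon length, and Psmb8 and Psmb9 stood below theirs. This order rests in part on the deposited exon lengths, which were 1705 bases for Psmb10, 3421 for Psmb7, 3381 for Psmb8 and 899 for Psmb5. In CPM averaged over 6 libraries, Psmb10 lay below Psmb7, at 40.5 against 50.4. Psmb8 lay above Psmb5, at 49.5 against 20.4, and Psmb9 lay below Psmb6, at 26.3 against 77.2.

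The activator genes Psme1 and Psme2 encode the subunits of the interferon-inducible cap. Psme1 had 76.4, 85.0 and 80.9 CPM in knockouts A, B and C, against 72.0, 71.4 and 73.8 CPM in WT 1, 2 and 3. Psme2 had 45.9, 44.0 and 43.4 CPM in knockouts, against 39.9, 41.5 and 36.2 CPM in WT. The genotypes did not overlap for either gene. The log2 fold change was 0.16 ± 0.052 (SE; unadjusted p = 0.0159, edgeR adjusted p = 0.215) for Psme1 and 0.18 ± 0.064 (SE; unadjusted p = 0.0233, edgeR adjusted p = 0.235) for Psme2, so neither passed the test. The Psme1 value rests in part on knockouts B and C, since it was 0.08 when knockout A alone was set against WT among the 4 libraries with Gh counts, where Psme2 was 0.22 and Psmb10 0.19.

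Psme2 has a protein-coding near copy, Psme2b, whose longest reading frame is 99.31% identical to it. Psme2b held 278 to 358 counts a library, up to 44.9% of the lowest Psme2 count of 797, so reads could be split between the genes. The FPKM ratio of Psme2b to Psme2 was 0.698 ± 0.00834 in knockouts and 0.805 ± 0.0243 in WT (SD, n = 3 each). With the copies summed, an alternative chosen after seeing the data, the log2 fold change of Psme2 was 0.12 (unadjusted p = 0.0676, edgeR adjusted p = 0.336). Psme1 shares exon positions with Emc9 on the opposite strand, which had up to 182 counts beside at least 1436 for Psme1.

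The other activators act mainly in the nucleus and are not part of the interferon-inducible cap. Psme3 had 152, 162 and 144 CPM in knockouts A, B and C, against 153, 166 and 156 CPM in WT 1, 2 and 3. Psme4 had 122, 110.2 and 117 CPM in knockouts, against 119, 124 and 117 CPM in WT. Both overlapped between genotypes, with log2 fold changes of -0.05 ± 0.056 for Psme3 and -0.04 ± 0.051 for Psme4 (SE). The FPKM ratio of Psme1 to Psme3 was 0.672, 0.702 and 0.747 in knockouts A, B and C, against 0.626, 0.576 and 0.633 in WT 1, 2 and 3. The ratio of Psme2 to Psme3 was 0.505, 0.455 and 0.502 in knockouts, against 0.435, 0.419 and 0.389 in WT. Neither ratio overlapped between genotypes, but Psme1 and Psme2 alone did not overlap either. No share of such ratios over all genes was computed, and counts of Psme2b were not added to Psme2 here.

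**Figure D3:**
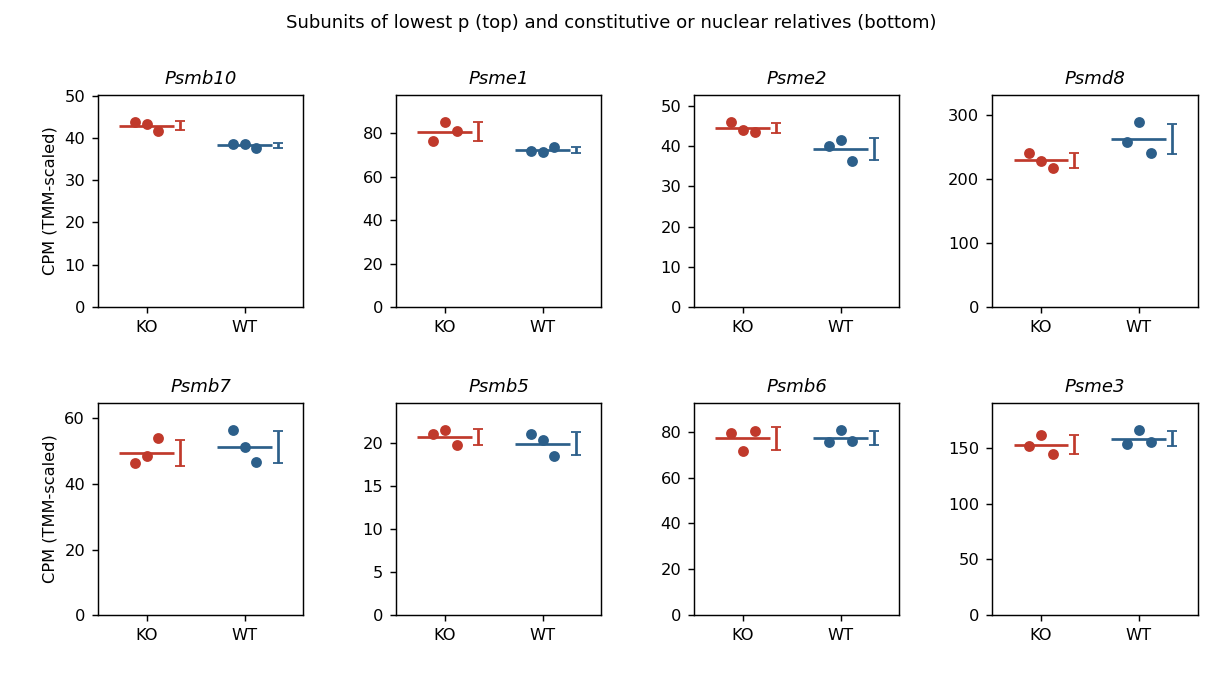
TMM-scaled CPM of the 4 subunits of lowest p (top) and of 4 relatives (bottom) in 3 P2rx7 knockout libraries (left, red) and 3 WT libraries (right, blue), on axes from 0; horizontal lines are means and bars show the SD. Psmb10, Psme1 and Psme2 lie above WT and Psmd8 below it without overlap, while Psmb7, Psmb5, Psmb6 and Psme3 overlap.

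The promoters of Psmb10, Psme1 and Psme2 are shown because these subunits are inducible by interferon and had the lowest p among those with the higher mean in knockouts. The windows have the same limits and build as above, and capitals mark any match to GAAANNGAA, the short core of the interferon-stimulated response element, TTCNNNGAA, the gamma-activated site, or TGACNNNGC. They are chr8:105938343-105938642 on the minus strand for Psmb10, chr14:55578244-55578543 on the plus strand for Psme1 and chr14:55591052-55591351 on the minus strand for Psme2, which is 1 of its 2 windows.
Psmb10: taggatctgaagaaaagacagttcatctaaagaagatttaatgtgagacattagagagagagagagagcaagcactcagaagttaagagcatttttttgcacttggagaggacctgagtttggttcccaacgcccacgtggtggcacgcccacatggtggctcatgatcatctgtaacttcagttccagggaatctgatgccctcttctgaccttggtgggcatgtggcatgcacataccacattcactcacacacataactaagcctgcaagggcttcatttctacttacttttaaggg
Psme1: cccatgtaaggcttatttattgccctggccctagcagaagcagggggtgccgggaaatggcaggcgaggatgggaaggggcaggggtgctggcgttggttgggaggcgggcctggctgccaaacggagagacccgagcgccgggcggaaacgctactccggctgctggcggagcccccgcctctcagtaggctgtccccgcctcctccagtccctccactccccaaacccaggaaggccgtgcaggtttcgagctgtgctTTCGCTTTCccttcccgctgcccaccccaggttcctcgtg
Psme2: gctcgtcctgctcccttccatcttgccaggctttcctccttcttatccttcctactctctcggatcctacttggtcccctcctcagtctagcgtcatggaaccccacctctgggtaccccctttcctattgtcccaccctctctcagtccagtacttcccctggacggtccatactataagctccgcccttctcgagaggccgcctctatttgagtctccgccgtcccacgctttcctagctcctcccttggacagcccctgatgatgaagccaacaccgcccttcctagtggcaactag
Psme1 held 1 match to the interferon-stimulated core, on the opposite strand and 11 bases after the start; these windows of Psmb10 and Psme2 held none of the 3 motifs. The core was found in 6 of the 34 subunit genes (17.6%), namely Psmb3, Psmb4, Psmc2, Psmd4, Psmd9 and Psme1, beside 9.76% of all genes. The gamma-activated site was found in 1, Psmd2 (2.94%), beside 9.55% of all genes. Psme1 and Psme2 lie 5.91 kb apart on chromosome 14, and Psmb5 lies 3.41 kb from Psmb11 on the same chromosome.

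Other interferon-gamma-inducible genes of antigen processing gave the context of these subunits. All 10 genes of that list had fold changes above 0, with a median of 0.29 on the log2 scale, against 0.0042 over all tested genes; 7 had an unadjusted p under 0.05 with the higher mean in knockouts, beside 8.35% of all genes, and 0 passed edgeR's adjusted test. The list includes Psmb8 and Psmb9, which are given above. Its 10 genes summed to 3527 to 3845 CPM in knockouts and 2625 to 3098 CPM in WT. Most of that sum was B2m, with 2870 to 3122 CPM in knockouts and 2071 to 2481 CPM in WT. The 2 of highest FPKM were B2m, the light chain of class I molecules, with a log2 fold change of 0.35 ± 0.089 (SE; edgeR adjusted p = 0.161), and Tapbp, which loads peptides, with 0.11 ± 0.056 (SE; edgeR adjusted p = 0.371). Of 8 plasma cell markers, Jchain and Igha passed the test and had all knockout values above all WT values. The other 6 overlapped. Of these, Ighm stood at 1.53 on the log2 scale (edgeR unadjusted p = 0.0169, adjusted p = 0.219). Sdc1 stood at 0.09, Xbp1 at 0.05 and Prdm1 at -0.15, and Mzb1 had 0 or 1 count. The list summed to 497 to 534 CPM in knockouts and 360.3 to 409 CPM in WT, and Igha alone averaged 98.3 ± 5.33 CPM in knockouts and 8.52 ± 5.09 CPM in WT (SD, n = 3 each). Of 8 osteoclast markers, Atp6v0d2 passed the test, Acp5 and Ctsk did not pass but had all knockout values above all WT values, Oscar had all of them below at -0.58 on the log2 scale, and Mmp9 overlapped; Oscar and 3 others stayed under 1 CPM. The list summed to 90.7 to 112 CPM in knockouts and 64.4 to 73.1 CPM in WT, and Atp6v0d2 alone averaged 38.3 ± 5.69 CPM in knockouts and 18.4 ± 1.63 CPM in WT (SD, n = 3 each). The part of these cell types in the Psmb10, Psme1 and Psme2 values was not tested.

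The base ATPases, Psmc1 to Psmc6, unfold substrates and open the gate of the core. Their levels ran from Psmc2 at 19.96 FPKM to Psmc1 at 64.6 FPKM, the narrowest spread of any group with more than 3 genes at 3.24-fold. Psmc1 had 121, 129 and 126 CPM in knockouts A, B and C, against 130, 126 and 118 CPM in WT 1, 2 and 3. Psmc2 had 96.8, 101 and 104 CPM in knockouts, against 103, 102 and 96.8 CPM in WT. Both genes overlapped between genotypes. All 6 fold changes lay between -0.00093 and 0.05 on the log2 scale, with 4 above 0, or 3 with DESeq2's size factors and 6 with upper-quartile scaling. Psmc3 shares exon positions with Slc39a13 on the opposite strand, which had up to 2429 counts beside at least 2243 for Psmc3.

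The other base subunits of the set are the scaffolds Psmd1 and Psmd2 and the ubiquitin receptor Psmd4. Psmd2 had 159, 161 and 166 CPM in knockouts A, B and C, against 170.3, 170.4 and 169 CPM in WT 1, 2 and 3. All knockout values lay below all WT values and the WT libraries lay close together. Its log2 fold change was -0.07 ± 0.041 (SE; edgeR adjusted p = 0.420), and it did not pass the test. Psmd1 and Psmd4 overlapped, at -0.04 and 0.0073. Per exon length Psmd2 stood highest of the 3 at 41.0 FPKM and Psmd1 lowest at 18.2 FPKM.

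The lid holds Psmd14, the enzyme that removes the ubiquitin chain, its partner Psmd7, and the structural subunits Psmd3, Psmd6, Psmd8, Psmd11, Psmd12 and Psmd13. All 8 of these lid genes had fold changes below 0 under TMM, DESeq2's size factors and upper-quartile scaling. Their median was -0.06 on the log2 scale under TMM, but 7 of them had an unadjusted p above 0.05 and none passed the adjusted test. Sem1, a small lid component whose symbol falls outside the rule, was not among them. It stood at 0.02 ± 0.050 (SE) under TMM and overlapped between genotypes. Without WT 2, 3 of the 8 lay above 0 and the median was -0.04, and without WT 1 it was 1 of 8. WT 2 was the library with the highest value for 17 of the 40 subunits, and WT 3 was the lowest for 16.

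Psmd8, known from yeast as the last subunit to join the lid, had 240.2, 228 and 217 CPM in knockouts A, B and C, against 258, 288 and 240.4 CPM in WT 1, 2 and 3. In CPM no knockout exceeded a WT library, but knockout A and WT 3 were nearly equal. In FPKM knockout A was at 78.91 and WT 3 at 78.83, so the genotypes overlapped on that scale. The log2 fold change was -0.20 ± 0.074 (SE; unadjusted p = 0.0280, edgeR adjusted p = 0.248), the largest in size among the 39 subunits other than Psma8. Without WT 2 it was -0.12, with an unadjusted p of 0.0814 and an edgeR adjusted p of 0.537. With knockout A alone against WT, among the libraries with Gh counts, it was -0.13. With Psma8 set aside, Psmd8 also had the largest ratio of highest to lowest library, 1.33, and at 80.1 FPKM the highest of the regulatory particle.

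Psmd11, a lid subunit that joins the lid to the core, had 84.1, 81.7 and 80.6 CPM in knockouts A, B and C, against 86.8, 91.6 and 83.4 CPM in WT 1, 2 and 3. The genotypes overlapped at knockout A and WT 3, and the log2 fold change was -0.09 ± 0.050 (SE; edgeR adjusted p = 0.420). Psmd3 had 125.9, 124.9 and 119.7 CPM in knockouts, against 126.2, 132.7 and 127.6 CPM in WT, without overlap though knockout A and WT 1 were nearly equal. In FPKM knockout A was at 25.5 and WT 1 at 25.3, so the genotypes overlapped on that scale. The log2 fold change of Psmd3 was -0.06 ± 0.045 (SE; edgeR adjusted p = 0.525). Psmd14 had 67.2, 66.5 and 75.0 CPM in knockouts, against 70.6, 75.9 and 67.4 CPM in WT, and overlapped. Lid levels ran from Psmd11 at 13.3 FPKM to Psmd8 at 80.1 FPKM, with a median of 25.2 FPKM. Psmd13 shares exon positions with Sirt3 on the opposite strand, which had up to 177 counts beside at least 1367 for Psmd13.

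Psmd5, Psmd9 and Psmd10 carry the names of subunits but act as chaperones that assemble the base and leave the finished particle. Per exon length they were the lowest of the regulatory particle genes, with Psmd9 at 3.86, Psmd5 at 7.01 and Psmd10 at 11.9 FPKM, against a median of 25.9 FPKM over all 20 genes named Psmc or Psmd. Psmd9 had 27.7, 29.2 and 28.8 CPM in knockouts A, B and C, against 26.8, 28.6 and 26.8 CPM in WT 1, 2 and 3. Psmd10, known as gankyrin, had 15.02, 19.6 and 17.7 CPM in knockouts, against 18.9, 16.7 and 16.7 CPM in WT, so knockouts held both its highest and its lowest library. The genotypes overlapped for all 3 chaperones, with log2 fold changes of -0.06 for Psmd5, 0.06 for Psmd9 and -0.0016 for Psmd10.

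**Figure D4:**
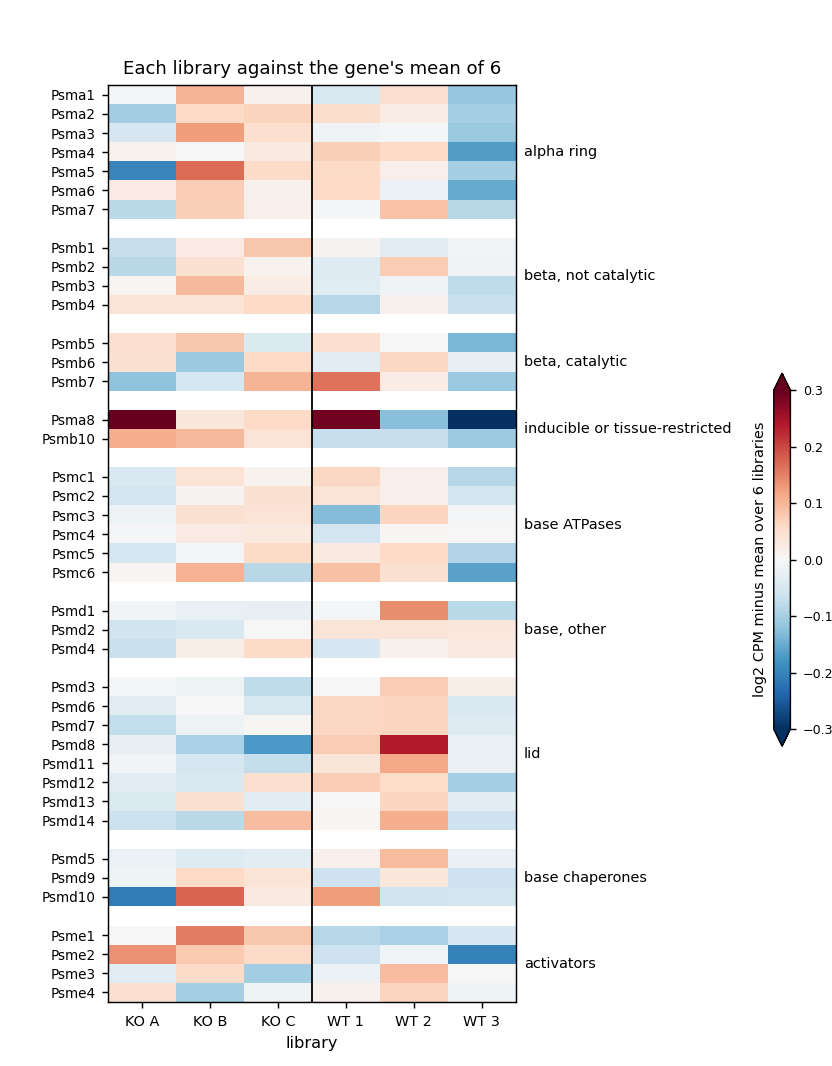
Log2 CPM of each of 40 subunit genes in each library less the gene's mean over the 6 libraries, with P2rx7 knockouts left and WT right; red is above and blue below the mean, and the scale ends at 0.3 either way. WT 3 is below the mean for most alpha ring and ATPase genes, WT 2 is above it for most lid genes, and Psmb10 is above it in every knockout and below it in every WT library.

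Single libraries carried much of the variation among the subunits. Counted over the 40 genes, the highest CPM lay in knockouts A, B and C for 3, 10 and 6 genes and in WT 1, 2 and 3 for 4, 17 and 0. The lowest lay in knockouts A, B and C for 11, 4 and 5 genes and in WT 1, 2 and 3 for 3, 1 and 16. Measured against the WT mean, the median subunit stood at -0.04, 0.04 and 0.05 on the log2 scale in knockouts A, B and C and at 0.0035, 0.04 and -0.07 in WT 1, 2 and 3. The spread among WT libraries was thus as wide as that among knockouts.

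Genes that work with the proteasome also gave no call. Of 13 assembly chaperones and associated proteins, 7 had fold changes above 0 with a median of 0.0069, and the 2 of highest FPKM were Akirin2, which brings proteasomes into the nucleus, at -0.02 ± 0.055 and Sem1, a small lid component, at 0.02 ± 0.050 (SE). Of 8 regulators of proteasome gene transcription, 3 lay above 0 with a median of -0.07, including the transcription factors Nfe2l1 at -0.12 ± 0.051 and Nfe2l2 at 0.08 ± 0.045 (SE). Of 6 ubiquitin and activating-enzyme genes, 3 lay above 0 with a median of -0.04; Ubb was at 0.11 ± 0.095 and Uba1 at -0.10 ± 0.049 (SE). Of 12 ubiquitin shuttles and genes of the VCP complex, 3 lay above 0 with a median of -0.06; Rad23b was at -0.07 ± 0.056 and Ubqln1 at -0.09 ± 0.053 (SE). In each of the 4 lists 0 genes passed edgeR's adjusted test, and an unadjusted p under 0.05, in either direction, was found for 0, 1, 2 and 1 genes in that order (0%, 12.5%, 33.3% and 8.33%, beside 16.6% of all genes).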

How the data were processed

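The authors deposited 1 table with raw counts and FPKM values of 6 libraries for 55291 gene symbols, with exon positions and summed exon length. Per the labels' protocols, femoral marrow RNA was purified with an RNeasy kit and 1.3 µg went into SMARTer mRNA libraries. GRCm38 and mm10 are the builds named per the submitters' processing notes. For aligner, counter, annotation and strand, the sources used here give nothing. The deposited counts, whole numbers per gene, were used for all tests, and the deposited FPKM values for levels between genes. The replicates are different mice, per the series' design text.

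The subunit genes, gene lists and tests were chosen with earlier results of these data known. Counts were analysed in R 4.3.3 with edgeR 4.0.16: filterByExpr kept 15478 genes, TMM factors scaled the libraries, and a two-sided quasi-likelihood test of genotype (glmQLFit, glmQLFTest) was adjusted by Benjamini-Hochberg over all tested genes at 0.05. The fit was tested on simulated data. Standard errors and 95% intervals come from that fit. Alternatives used limma 3.58.1 on log2(FPKM + 1) and log2(FPKM + 0.1), DESeq2 1.42.0, other scalings and filters, each library left out, and the libraries with Gh counts. Full statistics are given for up to 8 subunits of lowest p, the catalytic and interferon-inducible subunits, and the highest and lowest FPKM of each group. Psmd3 was added after its values were seen.

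Near-identical copies were found with BLAST 2.17.0 (90% identity over at least 50% of the longest reading frame): 14 of 41 subunit genes had one, and 8 had one at 5% or more of their lowest count. Of the subunit genes 9 share exon positions with another gene. Deposited gene positions equal GENCODE M21 for all 41. Promoters come from RefSeq (GRCm38.p6).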

Additional observations from a re-analysis of the deposited data

How the results depend on the processing

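None of the subunit genes was called under any of 15 other settings or with near-identical copies summed, which was chosen after seeing the data, and the median log2 fold change of the subunits ran from -0.05 to 0.03. The fold changes of single subunits kept their side of the test's threshold in all of these. The number of called genes among all tested, 16, did vary: 970 with all genes that had a count, 496 with DESeq2, 10 and 2 with limma on log2(FPKM + 1) and log2(FPKM + 0.1), 0 in the 4 libraries with Gh counts, 0 with that set as a covariate, and 0 to 172 with each library left out (8 without knockout A, 0 without knockout B, 0 without knockout C, 5 without WT 1, 45 without WT 2 and 172 without WT 3). In the fits of the libraries with Gh counts, and with the set as covariate, knockout A is the only knockout set against WT and is assumed to vary like the WT libraries. The cause of these shifts was not tested. No paired analysis was possible because the knockouts are lettered and the WT mice numbered, so no number is shared. With 3 mice per genotype, the standard errors ran from 0.041 to 0.108 with Psma8 set aside, and Psma8 had 0.23. Smaller differences than these errors allow could not be detected.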
